A study of Mus musculus with 7 samples.

Results

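The 9 genes described here are Wnt target genes of the liver: Axin2, Lgr5, Tbx3, Sp5, Rnf43, Znrf3, Nkd1, Notum and Tcf7l2. They were chosen by name as targets of the Wnt effector beta-catenin and as feedback inhibitors of the pathway, and each matched 1 of the 37620 genes in the table. Their transcripts were counted by bulk RNA sequencing of flash-frozen whole liver, from mice of the C57BL/6 strain that had eaten a Western diet for 30 weeks. Of the 7 libraries, 4 were labelled H-TBA, for high total bile acids, and 3 were labelled L-TBA, for low total bile acids. Both groups shared the strain, the tissue, the diet and its length, and the labels name no allele, no drug and no group on another diet. Whether the libraries are from different animals is not stated, and p-values then measure only the spread among libraries, which may be technical. The study asked how the livers of mice with high and low bile acids differ in fatty liver disease, and the comparison here asks whether transcripts that report Wnt signalling differed as well.

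Wnt proteins bind Frizzled and Lrp receptors, which stops the destruction of beta-catenin, and beta-catenin then activates genes together with transcription factors of the TCF/LEF family. In the liver, endothelial cells around the central vein secrete Wnt2, Wnt9b and R-spondin 3, and hepatocytes near them switch on pericentral enzymes such as glutamine synthetase. Many direct targets feed back on the pathway, as receptors for R-spondins, as ligases that remove Frizzled, as scaffold proteins of the destruction complex or as secreted enzymes that disable Wnt, which is why their transcripts are commonly read as reporters of Wnt signalling.

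Total counts lay between 9996990 and 12152613 per library. On the first principal component of all tested genes, which held 64.7% of the variance, H-TBA 2 to 4 lay between -43.5 and -34.6, the L-TBA libraries between 36.8 and 45.2, and H-TBA 1 apart from its group at -10.7. In H-TBA 1 all 8 of the bile duct markers examined were at their lowest level within H-TBA. The share over all genes that rose is not given here. The estimates of Lgr5 and Ctnnb1, which passed only once it was left out or in some other settings, are also given without H-TBA 1. Axin2, Znrf3, Notum, Tcf7l2 and Nkd1 did not pass without it either. Leaving it out also raised the calls over all genes, from 2003 higher and 1635 lower to 2429 and 2123. Of 8 hepatocyte markers, Ttr and Apob fell by 0.45 and 0.40 on the log2 scale, Cps1 rose by 1.13, and Alb, Apoa1, Tf, Serpina1a and Hnf4a did not pass.

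The TCF/LEF factors recognise the letters CTTTGAT, and the shorter core CTTTGA was searched as well, both on either strand (reverse complements ATCAAAG and TCAAAG). The shorter core lies inside the longer motif, so every match of the longer is also a match of the shorter. RefSeq promoters of mouse build GRCm38.p6 were at hand for 5 of the 9 genes, Sp5, Nkd1, Rnf43, Axin2 and Tcf7l2, in 7 promoter entries. Lgr5, Tbx3, Znrf3 and Notum had no entry. The 250 bases before the start are shown for Sp5 and Rnf43, which were lower in H-TBA, and for Axin2, which did not pass the test. All 3 lie on the plus strand and are written 5′ to 3′, with capitals for CTTTGA and, where a T follows, CTTTGAT. The Sp5 window is chr2:70474673-70474922, the Rnf43 window shown, 1 of 2 entries, is chr11:87662837-87663086, and the Axin2 window is chr11:108920099-108920348.
Sp5: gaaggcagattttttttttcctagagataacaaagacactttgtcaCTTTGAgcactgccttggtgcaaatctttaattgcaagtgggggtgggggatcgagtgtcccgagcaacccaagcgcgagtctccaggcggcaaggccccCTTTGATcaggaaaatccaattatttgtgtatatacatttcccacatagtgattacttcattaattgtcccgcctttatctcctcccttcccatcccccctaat
Rnf43: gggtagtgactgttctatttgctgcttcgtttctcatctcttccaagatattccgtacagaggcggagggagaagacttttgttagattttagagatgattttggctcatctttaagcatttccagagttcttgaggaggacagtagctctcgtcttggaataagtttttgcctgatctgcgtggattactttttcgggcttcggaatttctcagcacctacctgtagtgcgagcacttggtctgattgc
Axin2: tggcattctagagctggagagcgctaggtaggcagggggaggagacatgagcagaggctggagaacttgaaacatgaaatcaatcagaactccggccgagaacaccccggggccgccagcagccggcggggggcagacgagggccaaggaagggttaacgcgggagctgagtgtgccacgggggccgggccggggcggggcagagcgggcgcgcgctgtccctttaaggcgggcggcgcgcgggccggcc
The Sp5 window held 2 matches of the core, beginning 204 and 104 bases before the start, and the nearer one was the full CTTTGAT. Neither motif occurred in the Rnf43, Axin2, Nkd1 and Tcf7l2 entries. Over all 32851 promoter entries of the same 250 bases, 13.8% held the core at least once, 1.37% held it at least 2 times and 3.21% held the full motif. These are letter matches in a short window near the start and say nothing about sites elsewhere in the genes.

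The Wnt target genes did not share a direction between the groups. Tbx3, Sp5 and Rnf43 fell in H-TBA, Lgr5 and Axin2 had lower means without passing, and Znrf3, Notum, Tcf7l2 and Nkd1 had slightly higher means without passing. All 9 genes passed the filter on low counts and were tested. With the quasi-likelihood test of edgeR and a Benjamini-Hochberg adjusted p of at most 0.05, 3 of 9 were lower and 0 higher, while 23.9% of the 15249 genes tested were called in either direction, 10.7% lower and 13.1% higher. The median log2 fold change, H-TBA over L-TBA, was -0.33 for the 9 genes and 0.00 for all genes tested. With libraries scaled by their totals, which moved the median of all genes to 0.16, Tbx3 and Sp5 were called lower and Znrf3, Notum and Tcf7l2 higher. H-TBA and L-TBA libraries were fully separated in 5 of the 9 genes, 3 lower and 2 higher, where 33.5% of all tested genes had groups that did not overlap. In bulk liver, fewer cells of a type and less RNA per cell cannot be told apart.

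**Figure D1:**
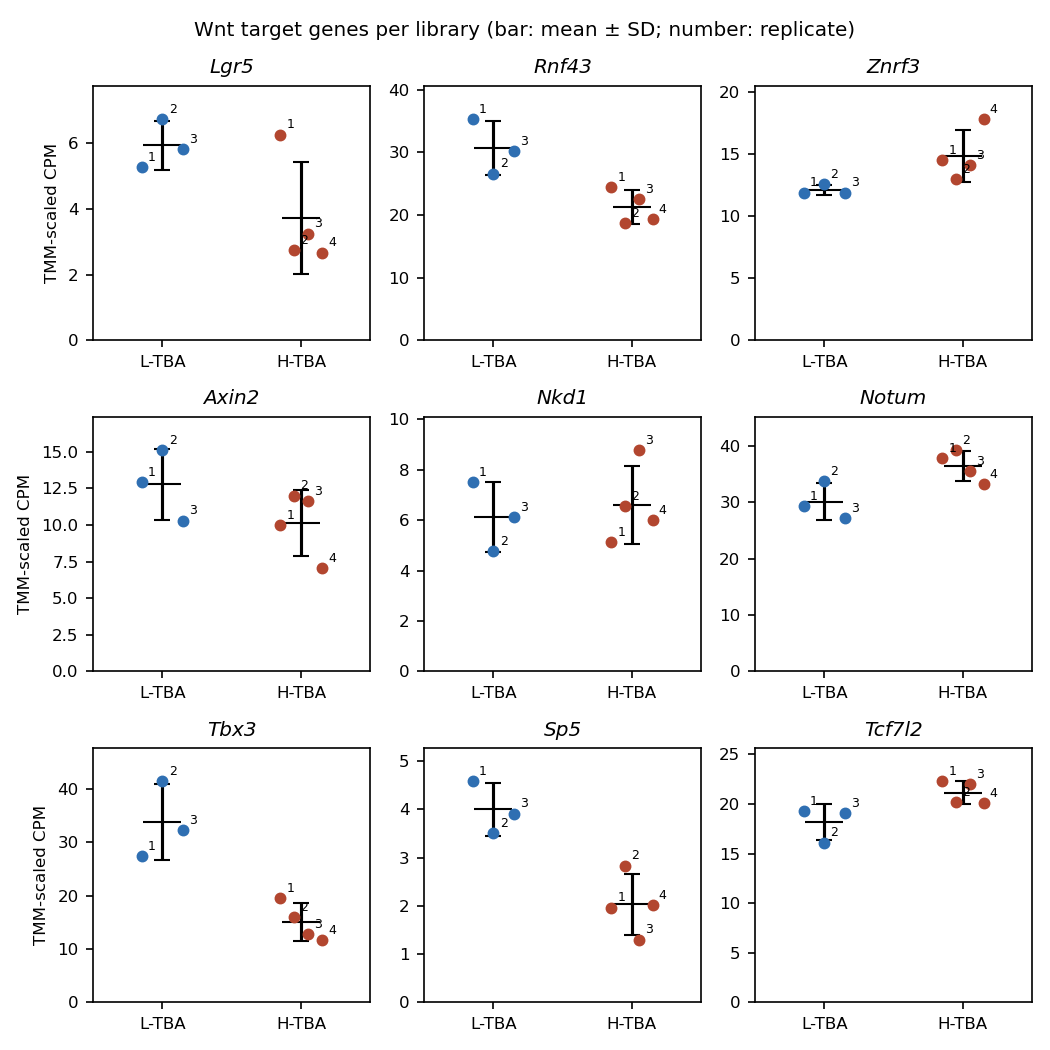
TMM-scaled counts-per-million (CPM, vertical axis, from 0) of the 9 Wnt target genes in each library, with L-TBA in blue and H-TBA in red. Bars show the mean and SD of 3 L-TBA and 4 H-TBA libraries and the numbers are replicates. Tbx3, Sp5 and Rnf43 are lower in all H-TBA libraries, and Lgr5 of H-TBA 1 sits at 6.26 CPM, among the L-TBA libraries.

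Levels are TMM-scaled CPM, as mean ± SD. Tbx3, a T-box transcriptional repressor of pericentral hepatocytes and a mediator of beta-catenin's effect on growth, had the largest difference of the 9 genes. It stood at 27.5, 41.5 and 32.3 CPM in L-TBA 1 to 3 and at 19.6, 16.0, 12.8 and 11.7 CPM in H-TBA 1 to 4. Every H-TBA library was below every L-TBA library. The mean went from 33.7 ± 7.11 CPM (SD, n = 3) to 15 ± 3.57 CPM (SD, n = 4), and the log2 fold change was -1.17 ± 0.18 (SE), at an edgeR adjusted p of 0.00114. The call held in all 17 alternatives other than the replicate block, with log2 fold changes from -1.33 to -1.0. It also held with the block, as given below.

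Sp5, a zinc finger factor that is switched on directly by beta-catenin and in turn represses other targets, fell to a similar degree from a lower level. Its libraries had 4.58, 3.50 and 3.91 CPM in L-TBA and 1.96, 2.83, 1.30 and 2.02 CPM in H-TBA. The groups did not overlap, and these levels rest on 39 to 53 counts per L-TBA library and 16 to 29 per H-TBA library. The log2 fold change was -0.99 ± 0.26 (SE), and it passed (adjusted p = 0.0172). The Sp5 call was lost without L-TBA replicate 1 (log2 fold change -0.88, adjusted p = 0.0768). It was also lost with the replicate number as a block, as given below. Over the alternatives other than this block, adjusted p spanned 0.00716 to 0.0768.

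Tcf7l2, the TCF family member through which beta-catenin acts on DNA in hepatocytes, was not lower alongside these targets. It was measured at 19.3, 16.1 and 19.1 CPM in L-TBA and 22.3, 20.2, 22 and 20.1 CPM in H-TBA. All H-TBA libraries were above the L-TBA libraries by a narrow margin. The log2 fold change of 0.22 ± 0.10 (SE) did not pass (adjusted p = 0.138). It passed only when libraries were scaled by their totals (0.38, adjusted p = 0.0282), among alternatives with adjusted p from 0.0282 to 0.427. Within each library, the number of Tbx3 counts per Tcf7l2 count, which no scaling of the library changes, was 1.43, 2.58 and 1.69 in L-TBA and 0.879, 0.792, 0.585 and 0.578 in H-TBA. This ratio did not overlap between the groups. It is 1 of 3 ratios that were chosen after the values had been seen, so they are given as descriptions, without p-values.

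Among the genes that act at the receptors, the ligase gene Rnf43 fell and the related Znrf3 did not pass. Both are membrane ubiquitin ligases that remove Frizzled from the cell surface, and both are feedback targets of the pathway. Rnf43 was at 35.3, 26.6 and 30.2 CPM in L-TBA and at 24.5, 18.7, 22.5 and 19.3 CPM in H-TBA. All 4 H-TBA values were below the lowest L-TBA value, and Rnf43 fell from 30.7 ± 4.41 to 21.2 ± 2.75 CPM (log2 fold change -0.53 ± 0.12, SE, adjusted p = 0.0103). The call was lost when L-TBA 1 was left out (-0.42, adjusted p = 0.0563) or when library totals were used (-0.38, adjusted p = 0.0541), while adjusted p over alternatives other than the replicate block spanned 0.00297 to 0.0563.

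Znrf3 had the opposite sign. Its level was 11.9, 12.6 and 11.9 CPM in L-TBA and 14.5, 13.0, 14.1 and 17.8 CPM in H-TBA. The groups did not overlap, with H-TBA 4 the highest, yet the log2 fold change of 0.29 ± 0.13 (SE) did not pass (adjusted p = 0.119). With library totals it passed at 0.45 (adjusted p = 0.0432, in a range from 0.0432 to 0.29). The number of Rnf43 counts per Znrf3 count was 2.96, 2.11 and 2.53 in L-TBA and 1.69, 1.44, 1.59 and 1.08 in H-TBA. The ratio was lower in every H-TBA library than in any L-TBA library, again as a description of a pair chosen on its values.

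Lgr5, a receptor for R-spondins that marks pericentral hepatocytes in liver and stem cells in the gut, depended on a single library. It was at 5.27, 6.73 and 5.81 CPM in L-TBA and at 6.26, 2.74, 3.25 and 2.67 CPM in H-TBA. H-TBA 1 lay within the L-TBA range, and H-TBA 2 to 4 lay below all L-TBA libraries. With all 7 libraries the log2 fold change was -0.68 ± 0.28 (SE) and did not pass (adjusted p = 0.106). Without H-TBA replicate 1 it was -1.03 and passed (adjusted p = 0.0022). Limma-voom with sample quality weights also called Lgr5 (-0.87, adjusted p = 0.014), and other than with the replicate block adjusted p spanned 0.0022 to 0.262. The counts behind these levels were 58 to 75 per library in L-TBA and 28 to 67 in H-TBA.

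Lgr4, the more widely expressed R-spondin receptor of the same family, was at 42 ± 6.15 CPM in L-TBA and 41.2 ± 5.44 CPM in H-TBA, a log2 fold change of -0.03 ± 0.12 (SE) that did not pass (adjusted p = 0.902) and whose sign turned with library totals, the replicate block, the GC offset and when H-TBA 3, H-TBA 4 or L-TBA 3 was left out. The number of Lgr5 counts per Lgr4 count was 0.137, 0.175 and 0.118 in L-TBA and 0.136, 0.06, 0.092 and 0.0707 in H-TBA. The groups overlapped through H-TBA 1.

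Axin2, the scaffold of the beta-catenin destruction complex and the most used reporter of Wnt signalling, did not pass. Its libraries held 12.9, 15.1 and 10.3 CPM in L-TBA and 10, 12, 11.6 and 7.04 CPM in H-TBA. The groups overlapped, with H-TBA 4 lowest and L-TBA 2 highest. Axin2 had a log2 fold change of -0.33 ± 0.19 (SE, adjusted p = 0.238), and it was called in 0 of 17 alternatives, with adjusted p from 0.14 to 0.576. Nkd1, an inhibitor that binds Dishevelled inside the cell, was at 7.51, 4.76 and 6.11 CPM in L-TBA and 5.14, 6.55, 8.78 and 5.99 CPM in H-TBA. These values are intermixed, and the log2 fold change of 0.11 ± 0.22 (SE, adjusted p = 0.752) turned in sign when H-TBA 3 (-0.06) or L-TBA 2 (-0.05) was left out.

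Notum, a secreted enzyme that removes the lipid from Wnt proteins and so disables them, had a higher mean in H-TBA. It was at 29.3, 33.7 and 27.2 CPM in L-TBA and at 37.8, 39.2, 35.5 and 33.2 CPM in H-TBA. The groups overlapped only between L-TBA 2 and H-TBA 4. The log2 fold change was 0.27 ± 0.10 (SE), just short of the threshold (adjusted p = 0.0648). Notum passed when L-TBA 2 was left out (0.36, adjusted p = 0.0405) or when library totals were used (0.43, adjusted p = 0.0134), and with an offset for GC content it was at 0.10 with an adjusted p of 0.537, the highest over the alternatives. In the annotation used for names, 708 of the 2408 exon bases of Notum are shared with the antisense gene Notumos, which had 13 to 33 counts per library. The strand setting of the counting is not given in the sources used here, so reads of such antisense pairs cannot be told apart. For Tbx3 the shared stretch with Tbx3os1 was 115 of 6624 exon bases, and for Axin2 the antisense gene Gm11670 had 0 counts in every library.

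**Figure D2:**
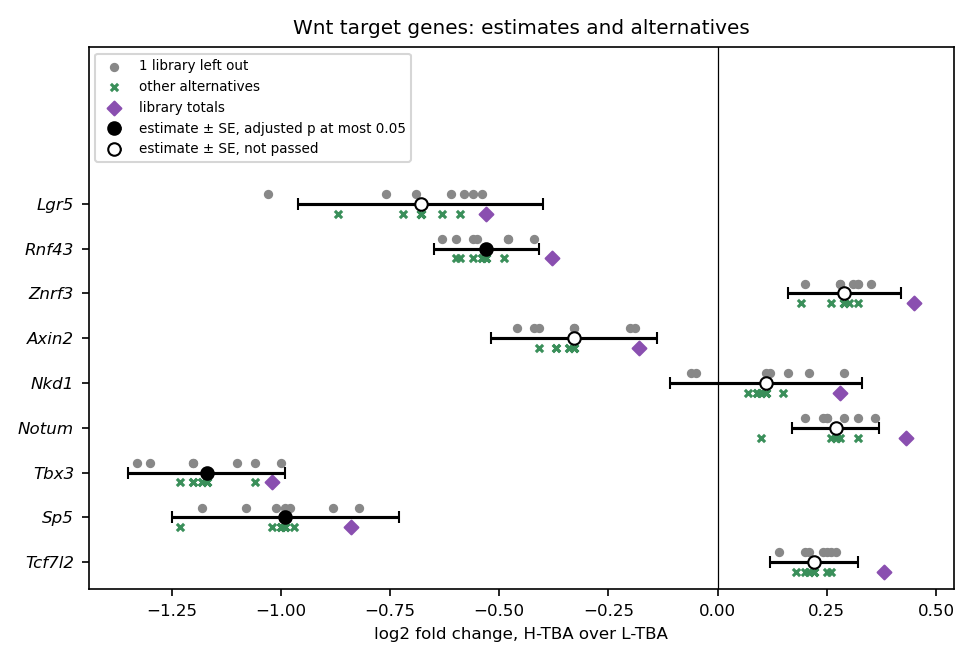
Log2 fold change of H-TBA over L-TBA (horizontal axis) for each Wnt target gene, with the estimate and its SE as circles, filled where the adjusted p is at most 0.05. Grey dots leave out 1 library each, crosses are other settings and diamonds are library totals. The estimates of Tbx3, Sp5 and Rnf43 stay below 0 throughout, Nkd1 crosses 0, and Lgr5 reaches -1.03 without H-TBA replicate 1.

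Levels of different genes were compared per kilobase of annotated exon, since long transcripts collect more reads. The length is that of all annotated exons of a gene merged, 10264 bases for Lgr5, so the ranks depend on it. By CPM alone, Sp5 at 3.99 was below Lgr5 at 5.94 in L-TBA. In L-TBA, Notum was the most abundant of the 9 at 12.5 ± 1.38 CPM per kilobase, followed by Tbx3 at 5.09 ± 1.07 and Rnf43 at 4.68 ± 0.672. Those of Tbx3 and Rnf43 did not differ beyond their spread. Axin2, Tcf7l2 and Sp5 formed a middle group at 2.32 ± 0.433, 2.07 ± 0.206 and 1.90 ± 0.259 CPM per kilobase, whose neighbours lay within their spread. Znrf3 at 1.54 ± 0.0471 and Nkd1 at 1.34 ± 0.303 came next, also within their spread, and Lgr5 was lowest at 0.578 ± 0.072. In H-TBA, Notum led again at 15.1 ± 1.10 CPM per kilobase and Lgr5 was again lowest at 0.363 ± 0.166. Tbx3 stood at 2.27 ± 0.539 CPM per kilobase there, next to Tcf7l2 at 2.41 ± 0.13, and Rnf43 was second at 3.24 ± 0.419. Sp5 was at 0.967 ± 0.299 CPM per kilobase in H-TBA, below Nkd1 at 1.45 ± 0.342.

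Profiles over the 7 libraries were compared with those of 12679 other tested genes. Genes of low mean level, without a symbol or with a Gm, Rik, Rps, Rpl or mt- name were left out of this search. The closest to Lgr5 were Acacb, an acetyl-CoA carboxylase of mitochondria, Rxrg, a retinoid X receptor, and Guca1a. Their root-mean-square differences from Lgr5 were 0.17, 0.18 and 0.18 on the log2 scale, after each gene was centred on its mean. Acacb had 34.2 CPM in H-TBA 1 against 19.6, 15.7 and 17.2 CPM in H-TBA 2 to 4, and 29.5, 39.9 and 36.9 CPM in L-TBA. As for Lgr5, H-TBA 1 lay within the L-TBA range and H-TBA 2 to 4 below it. The closest profiles to Axin2 were Tfb1m, Slc16a3 and Nudt2, at 0.13, 0.15 and 0.15. None of these 3 passed the test between the groups. Acacb, Rxrg and Guca1a passed close to the threshold (edgeR adjusted p = 0.0421, 0.0497 and 0.0424), while Lgr5 itself did not.

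Pericentral hepatocyte genes that need beta-catenin were mostly lower in H-TBA. Of 19 tested genes of this list 11 fell and 2 rose, against 10.7% lower and 13.1% higher over all genes tested, and the median log2 fold change was -0.76. Glul, the glutamine synthetase, was at 1519.3, 1736.8 and 1609.8 CPM in L-TBA and at 640.4, 429.2, 296.2 and 313.9 CPM in H-TBA (log2 fold change -1.95 ± 0.23, SE, adjusted p = 0.0003). Its groups were far apart, and H-TBA 1 was the highest of H-TBA, as for Lgr5, Tbx3 and Rnf43. For Sp5 and Axin2 the highest was H-TBA 2. H-TBA 1 was the highest of H-TBA in 9 of the 11 hepatocyte genes that fell. The share over all genes that fell is not given here. On the first principal component of all tested genes, H-TBA 1 was also the H-TBA library nearest to L-TBA. Nr1i3, which encodes the xenobiotic receptor CAR, fell by 1.28 on the log2 scale, Cyp2c37, a cytochrome P450, by 1.68 and Cyp2e1, the ethanol-oxidising P450, by 1.11. Gstm3, a glutathione transferase that shares near-identical stretches with its neighbours in the Gstm family, rose by 1.0 ± 0.13 (SE), against the direction of the list. This list was drawn up with earlier results for Glul, Cyp2e1, Nr1i3 and Cyp2c37 known, so its direction is no independent evidence.

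**Figure D3:**
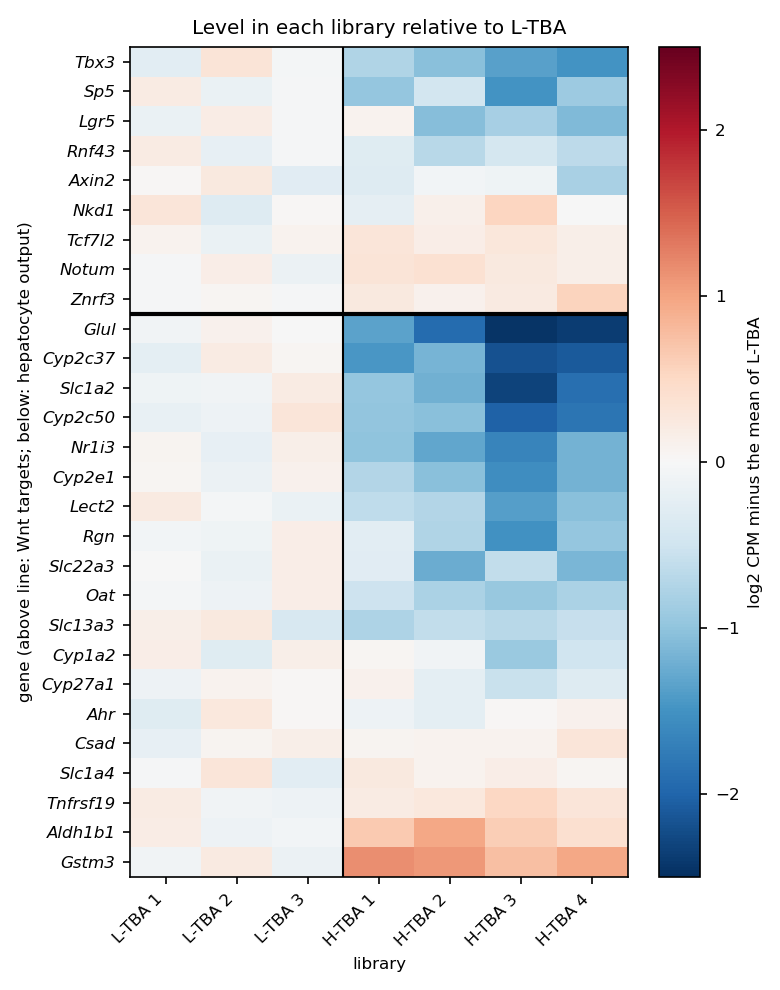
Level of each gene in each library as log2 CPM minus the mean of the 3 L-TBA libraries (colour scale from -2.5 to 2.5), with the 9 Wnt target genes above the line and 19 beta-catenin-dependent hepatocyte genes below it. Tbx3, Sp5 and Rnf43 are blue across the H-TBA columns, Lgr5 is blue in H-TBA 2 to 4 only, and Glul is the darkest row.

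Among targets reported in other tissues, more rose than fell. Of 19 tested genes 6 (31.6%) rose and 2 (10.5%) fell, against 13.1% and 10.7% of all genes tested, so the share that fell was near the background. The median log2 fold change was 0.26. Mmp7, a matrix protease of epithelia, rose from 7.36 ± 1.26 to 68.3 ± 19.7 CPM (3.21 ± 0.25, SE, adjusted p = 6.12e-05), and the secreted protein Dkk3 by 1.72. Sox9, a transcription factor of bile duct cells, rose by 1.21 and Bambi, a TGF-beta pseudoreceptor, by 1.29 on the log2 scale. Ccnd1, the cyclin of cell cycle entry, rose from 86.9 ± 24.4 to 155.4 ± 34.0 CPM (0.84 ± 0.20, SE, adjusted p = 0.0109). Ephb2, a receptor for ephrins, fell by 1.44 on the log2 scale, and Prox1 was the other gene of the list that fell. Myc, a growth regulator and classic target in the gut, was at 0.03 ± 0.13 (SE) with an adjusted p of 0.915. Lef1 had 17 counts in each group and was below the filter. All 8 bile duct markers rose, Sox9 among them. The summed level of these markers was 952.3 to 1840.3 CPM in H-TBA and 456.2 to 719.3 CPM in L-TBA, and none was at 0 in any library. Their part in the rise of these epithelial targets was not tested.

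The signals upstream of the targets were described from 25 Wnt ligands, R-spondins and secretion factors, of which 11 passed the filter and 6 had no count in any library. The ligands of the central vein did not pass or were below the filter. Rspo3, the R-spondin of central vein endothelium, was at 7.51, 5.12 and 7.31 CPM in L-TBA and 6.63, 6.84, 7.07 and 4.77 CPM in H-TBA (log2 fold change -0.07 ± 0.20, SE, adjusted p = 0.828), and its sign turned with library totals, with the replicate block and when H-TBA 4 or L-TBA 1 was left out. Wnt2 had 33 counts over the L-TBA libraries and 40 over H-TBA (-0.19 ± 0.40, SE, adjusted p = 0.774), and Wnt9b, with 20 and 21 counts, was below the filter. At these counts a small difference in Wnt2 could not be detected, and Wnt9b was not tested in the main fit. The summed level of 6 markers of central vein endothelium, these 3 genes among them, was 17.7 to 22.6 CPM in H-TBA and 13.7 to 20.7 CPM in L-TBA. None of the 5 that were tested passed. Of 6 sinusoidal endothelial markers 5 fell, with a summed level of 113.1 to 122.3 CPM in H-TBA and 158.9 to 200.4 CPM in L-TBA. Whether fewer sinusoidal transcripts had a part in the lower targets was not tested.

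In the same list, 6 of the 11 tested genes (54.5%) rose, against 13.1% of all genes tested, and 0 fell. Of those that rose, Wnt7a, Wnt7b and Wnt10a had at most 2, 8 and 4 counts in any L-TBA library. They passed the filter on low counts only through H-TBA, where they are high. The share that rose thus depends on the filter and is only a description. Wnt4 was at 9.33, 7.45 and 9.22 CPM in L-TBA and 21.8, 27.2, 30.5 and 26.6 CPM in H-TBA (1.61 ± 0.14, SE, adjusted p = 8.95e-05). Wnt7b rose by 3.22 from 0.487 ± 0.211 to 4.62 ± 1.93 CPM, and Wnt10a and Wnt7a rose by 3.51 and 3.46 from 8 and 5 counts over the L-TBA libraries. Wls, the carrier that escorts Wnt proteins to the cell surface, rose by 0.86 on the log2 scale. Wnt5a, named after its values had been seen, rose by 0.89 ± 0.30 (SE) with libraries that overlapped and an adjusted p of 0.0496, close to the threshold. H-TBA 1 was the lowest H-TBA library for all 6, as it was for the bile duct markers, whose part in these rises was not tested. On the first principal component of all tested genes, this library was the nearest of H-TBA to L-TBA.

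**Figure D4:**
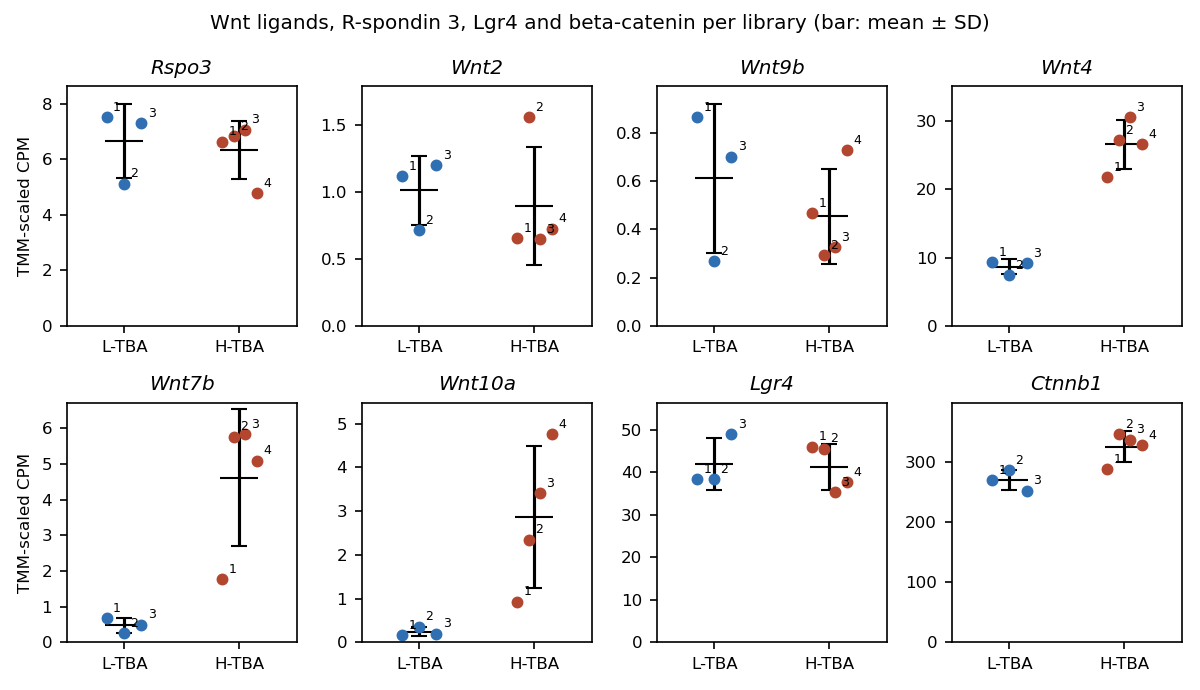
TMM-scaled CPM (vertical axis, from 0) of Rspo3, 5 Wnt ligands, the receptor gene Lgr4 and the beta-catenin gene Ctnnb1 in each library, with mean and SD as bars and replicate numbers beside the points. Rspo3, Wnt2, Wnt9b and Lgr4 overlap between the groups, while every H-TBA library is above the L-TBA libraries for Wnt4, Wnt7b and Wnt10a.

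In the core of the pathway, 11 of 43 tested genes (25.6%) rose and 1 (2.33%) fell. Over all genes tested these shares were 13.1% and 10.7%. The median log2 fold change of the core list was 0.13. Some of the core genes that rose, Fzd2 among them, passed the filter on low counts only through H-TBA. Without H-TBA replicate 3 or 4 the count that rose was 7, and with library totals it was 20. Ctnnb1, which encodes beta-catenin, was at 269.2 ± 16.8 CPM in L-TBA and 324.6 ± 25.8 CPM in H-TBA, with groups that did not overlap and a log2 fold change of 0.27 ± 0.10 (SE) that did not pass (adjusted p = 0.0676). It passed without H-TBA replicate 1 (0.32, adjusted p = 0.0175), with DESeq2 (adjusted p = 0.0316), with limma-voom (adjusted p = 0.0209) and with library totals (adjusted p = 0.0167). Apc, a scaffold of the destruction complex, was at 0.12 ± 0.08 (SE) with an adjusted p of 0.278, and passed with library totals (0.28, adjusted p = 0.0409). The TCF family gene Tcf7 was at 0.06 ± 0.19 (SE), did not pass (adjusted p = 0.857) and turned in sign without L-TBA replicate 1 or 2. The Frizzled receptor gene Fzd2 rose by 2.41 on the log2 scale, with only 13 counts over the L-TBA libraries and 98 over H-TBA. Fzd1 rose by 0.77 and Fzd4 fell by 0.57. The corepressors of TCF factors Tle1 and Tle2 rose by 0.55 and 0.70.

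**Figure D5:**
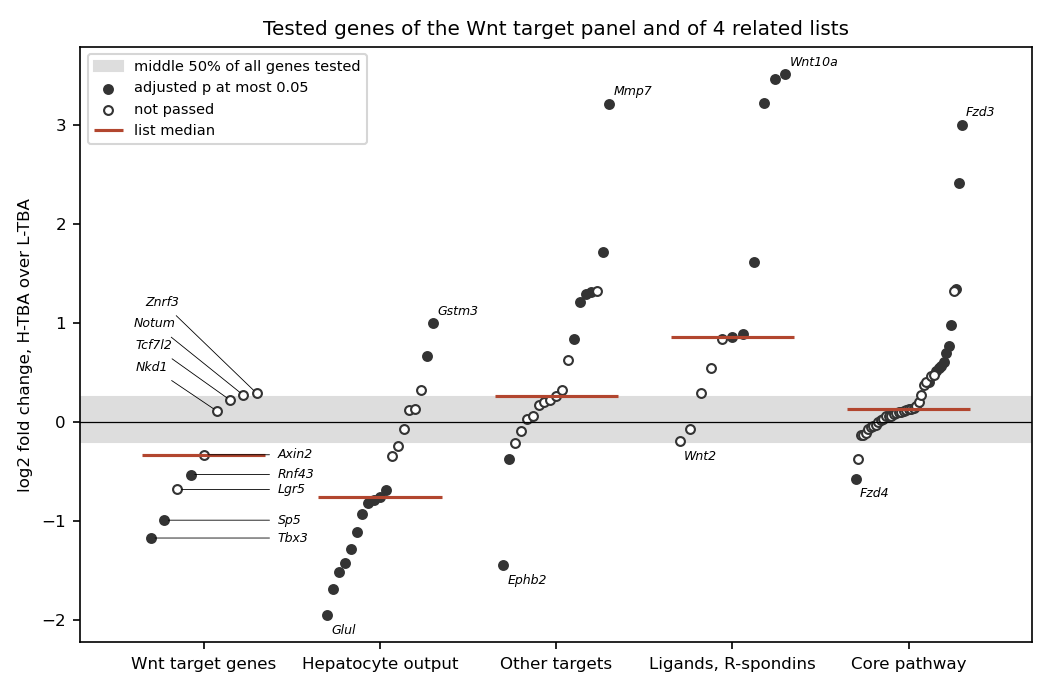
Log2 fold change of H-TBA over L-TBA (vertical axis) of each tested gene in 5 lists, ordered within a list, with filled points for an adjusted p of at most 0.05, red lines for list medians and a grey band for the middle 50% of all genes tested. The Wnt target genes spread from -1.17 (Tbx3) to 0.29 (Znrf3), the hepatocyte list has a median of -0.76 and the ligand list one of 0.86.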

How the data were processed

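The authors deposited 1 table of raw counts per Ensembl gene, whole numbers with no normalization, for 7 libraries. Per the submitters' processing notes, tools named were DESeq2 1.18.1, TopHat2 2.0.11 and CASAVA, and the build mm9, with no role stated for any of them. For the counter, strand setting and annotation, the sources used here give nothing. Symbols came from GENCODE and matched 32897 of 37620 identifiers. Exon lengths and antisense overlaps came from the same annotation, of another build than mm9, so no gene coordinates are given. Promoter sequences are from RefSeq.

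Of 23697 genes with a count, 15249 passed filterByExpr at a minimum count of 10 and a minimum total of 15. The groups were compared after TMM scaling in edgeR 4.0.16 (R 4.3.3), whose quasi-likelihood fit held no term besides group, and p-values were adjusted over all tested genes by Benjamini-Hochberg, at 0.05. The common biological coefficient of variation was 0.125. SEs were derived from the fold change and the F statistic. Every adjusted p is from this test unless an alternative is named. The alternatives were DESeq2 1.42.0, limma-voom (limma 3.58.1), other scalings and filters, a robust fit, offsets for GC content and length, other thresholds, the replicate number as a block and leaving out each library.

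The 9 genes and all lists were chosen with earlier results of these data known. The text names the 9 genes, up to 5 genes per list with the smallest p, 12 genes of the pathway whatever their result, and the 3 genes closest in profile to Axin2 and to Lgr5. Prox1, Wnt5a and Acacb's values in each library were added after they had been seen, as were the hepatocyte markers named. Tle5 and Rhbg were not analysed here. Within groups, chi-square over degrees of freedom was at least 5.29 for each of the 9 pairs, so no replicate was a copy of another in its group.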

Additional observations from a re-analysis of the deposited data

Results flagged for a closer look

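In the H-TBA group, 39 named genes were checked for a library that stood far from the other 3 by Dixon's 95% criterion, which compares the gap to the nearest library with the range and which chance alone meets in about 1 in 20 groups, and 4 met it. Lgr5 was at 6.26 CPM in H-TBA 1 with the next library at 3.25 CPM, a gap of 0.838 of the range. Ephb2 was at 13.9 CPM in H-TBA 1 with the next at 9.47 CPM. Wnt2 was at 1.56 CPM in H-TBA 2 with the next at 0.728 CPM, and Lef1 at 0.586 CPM in H-TBA 2 with the next at 0.325 CPM, both from few counts.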

How the results depend on the processing

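Over 18 alternatives, the 9 Wnt target genes kept their direction and their side of the threshold in 150 of 162 values. A call was lost in 4, gained in 6, and the sign turned in 2, both for Nkd1 (-0.06 when H-TBA 3 was left out, -0.05 when L-TBA 2 was, and up to 0.29 with other libraries left out). The number of the 9 called higher was 3 with library totals and 1 at an adjusted p of 0.1, and the number called lower was 1 at an adjusted p of 0.01. Leaving out 1 library gave 0 to 1 called higher and 1 to 4 called lower, with 1 lower without L-TBA replicate 1. Over all genes, library totals gave 3117 higher and 832 lower, 78.9% higher against 55.1%, an adjusted p of 0.01 gave 1126 and 749, and leaving out 1 library gave 1470 to 2429 higher and 1035 to 2123 lower. Core pathway genes called higher were 20 with library totals and 6 at an adjusted p of 0.01, and 7 to 15 with 1 library left out. Core genes called lower were 2 with DESeq2, limma-voom, DESeq2 size factors, no filter, the robust fit, the length offset and an adjusted p of 0.1, 3 with the GC offset, and 1 to 2 with 1 library left out. Other targets called lower were 1 with library totals and at an adjusted p of 0.01, and 1 to 2 with 1 library left out. Higher ligands were 4 to 7, lower ligands 0 to 0, other targets called higher 6 to 9, and hepatocyte genes 2 to 3 higher and 9 to 12 lower with 1 library left out. Values that turned in sign, none of them past the threshold, were Lgr4 (0.13 with library totals, 0.01 with the replicate block, 0.02 with the GC offset, and 0.04, 0.01 and 0.10 when H-TBA 3, H-TBA 4 or L-TBA 3 was left out, with -0.09 as the lowest), Rspo3 (0.08 with library totals, 0.05 with the replicate block, 0.05 and 0.03 when H-TBA 4 or L-TBA 1 was left out, with -0.23 as the lowest), Tcf7 (-0.03 and -0.07 without L-TBA replicate 1 and 2, up to 0.28) and Myc (-0.06 and -0.03 when H-TBA 3 or L-TBA 3 was left out, up to 0.12). The causes were not tested.

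The replicate numbers gave no sign of pairing the libraries. Deviations from the group means of libraries with the same number correlated at -0.103 to -0.0589, and no library correlated best with its own number. With only 3 such pairs, this check cannot exclude a weak shared effect. With the replicate number as a block, 1166 genes were higher and 754 lower, core genes were 5 higher and 0 lower, other targets 1 lower, and of the 9 target genes Tbx3 and Rnf43 passed (adjusted p = 0.0138 and 0.0246) while Sp5 did not (-1.0, adjusted p = 0.0786). Without any 1 library, the mean log2 difference between the groups was -0.94 to -0.68 for Rnf43 over Znrf3, -1.58 to -1.15 for Tbx3 over Tcf7l2 and -0.96 to -0.56 for Lgr5 over Lgr4, an alternative added after seeing the data.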

Other observations

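A few genes of the lists below the filter on low counts had different counts in the groups, and they were picked after their values had been seen. Sfrp5, a secreted Frizzled-related inhibitor, had 14, 5, 12 and 6 counts in H-TBA 1 to 4 and 2, 0 and 1 in L-TBA 1 to 3. Wnt11 had 4, 5, 15 and 11 counts in H-TBA and 1, 1 and 0 in L-TBA. Fosl1, an AP-1 factor, had 1, 0, 2 and 0 counts in H-TBA and 7, 12 and 8 in L-TBA. In all 3 genes the groups did not overlap. They were tested only under alternatives that dropped the filter or left out a library.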
